A study of Mus musculus with 9 samples.

Results

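The aortas of mice fed a high fat diet were compared with those of mice fed chow, gene by gene. All animals carried the Apoe-/- genotype, so the controls lack a working Apoe as well. They entered a regimen of 24 weeks at 6 to 8 weeks of age, on chow diet (CD) or high fat diet (HFD), and the aorta described as atherosclerotic was taken for RNA sequencing. The columns CD_1 to CD_3 and HFD_1 to HFD_3 form the comparison. They are 6 of the 9 libraries of the series, whose other 3 come from mice on the same high fat diet that also received intraperitoneal ammonium iron(III) citrate (HFD_IO). The titles number the aortas 1 to 9, but whether each came from 1 animal, the sex, the composition of the diets and the time of day of collection are not stated in the labels. The p-values therefore measure only the spread between these samples. The deposited table gives levels as FPKM, which scale the fragments of a gene by its length and by the depth of the library, and 13883 of the 54532 genes in the table reached an FPKM of 1 in at least 3 of the 9 libraries and were tested. A change is the mean of HFD minus the mean of CD on the log2(FPKM + 1) scale, given with its standard error (SE). A gene is said to have risen or fallen where limma's Benjamini-Hochberg adjusted p was at most 0.05.

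The mouse aorta is a tube of elastic sheets and smooth muscle cells lined by endothelium and wrapped in a fibroblast-rich adventitia and fat. Apolipoprotein E is the ligand by which the liver clears remnant lipoproteins, and without it cholesterol-rich particles enter the wall. There macrophages take them up and become foam cells, which break the lipid down in lysosomes and export cholesterol under control of liver X receptors. Smooth muscle cells in plaques can lose contractile proteins and gain matrix, bone or cartilage genes. A fatty diet is the usual way to speed this disease in the mouse.

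On the high fat diet most genes of lipid-laden macrophages, of lysosomal enzymes and of the nuclear-encoded respiratory chain rose, and most endothelial genes and Npas2, Arntl and Clock of the circadian clock fell. Spp1, which encodes the secreted phosphoprotein osteopontin, changed most (log2 change 6.17, SE 0.25, adjusted p = 4.9e-06). All 24 tested genes of foam cell macrophages rose, as did 63 of 73 nuclear genes of the respiratory chain, while 26 of 40 endothelial genes fell. The respiratory chain count was 4 with the white adipocyte level as a covariate and 28 after rescaling to TPM. Of all tested genes 39.4% passed the threshold, 21.8% as rises and 17.6% as falls. Members of the lists were chosen with earlier results of these data known, so these counts describe the lists and test nothing. A gene's length was related to its change: short genes were more often higher and long genes more often lower.

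Recovered read totals ran from 16660963 to 18158642 over the 6 libraries. Smooth muscle actin (Acta2) was at 4264 to 4492 FPKM in CD and 5422 to 6237 in HFD, and the atrial and cardiac markers Nppa and Myh6 stayed under 1 FPKM in each library. Some libraries stood apart, and the genes that follow in this paragraph were chosen after their values were seen. CD_1 correlated with the other chow libraries at Pearson's r of 0.961 and 0.962 across genes, against 0.988 between CD_2 and CD_3, and its T cell list summed to 91.7 FPKM against 45.1 and 29.4. HFD_1 alone held genes of sympathetic neurons: Th was at 16.0 FPKM and Dbh at 11.8, with both at 0 in the other 5 libraries. HFD_3 had the most fat, its white adipocyte list summing to 4555 FPKM against 1871 and 1922 in the other HFD libraries and 837 to 1735 in CD. HFD_2 had the most B cell RNA, with a list sum of 221 FPKM against 62.3 to 81.3 elsewhere. Skeletal muscle actin, Acta1, was at 51.3 and 31.3 FPKM in HFD_2 and HFD_3 and at most 4.15 in the other libraries. In bulk tissue a loss of cells of 1 type and a loss of RNA per cell cannot be told apart.

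In the fit of all genes 3030 rose (21.8% of those tested) and 2440 fell (17.6%), and 6850 had an unadjusted p under 0.05. The median change over all tested genes was 0.06. Past 1 on the log2 scale were 570 rises and 501 falls, past 2 were 85 rises and 35 falls, and past 3 were 21 rises and 1 fall. The large changes were therefore mostly rises. The split between directions depended on the scaling: rescaled to TPM, so that length-scaled values sum to the same total in each library, there were 1018 rises and 4948 falls with a median change of -0.30, and scaled to ribosomal protein genes 903 rises and 2770 falls with a median of -0.17. Directions near 0 are thus relative to the deposited scaling, and medians of gene lists are also given relative to the median of all genes where that matters.

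Separation of the groups was more common than calls. In 7042 genes (50.7%) the 3 HFD libraries did not overlap the 3 CD libraries, 3914 with HFD above (28.2%) and 3128 with HFD below (22.5%). Of these, 959 higher and 768 lower genes missed the adjusted threshold, and their median absolute change was 0.29 against 0.65 for those that passed. Only 75 rises and 80 falls came from groups that overlapped. Among all calls CD_1 was the chow library nearest to the HFD mean in 52.4%, and HFD_3 the HFD library farthest from the CD mean in 42.1%.

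**Figure D1:**
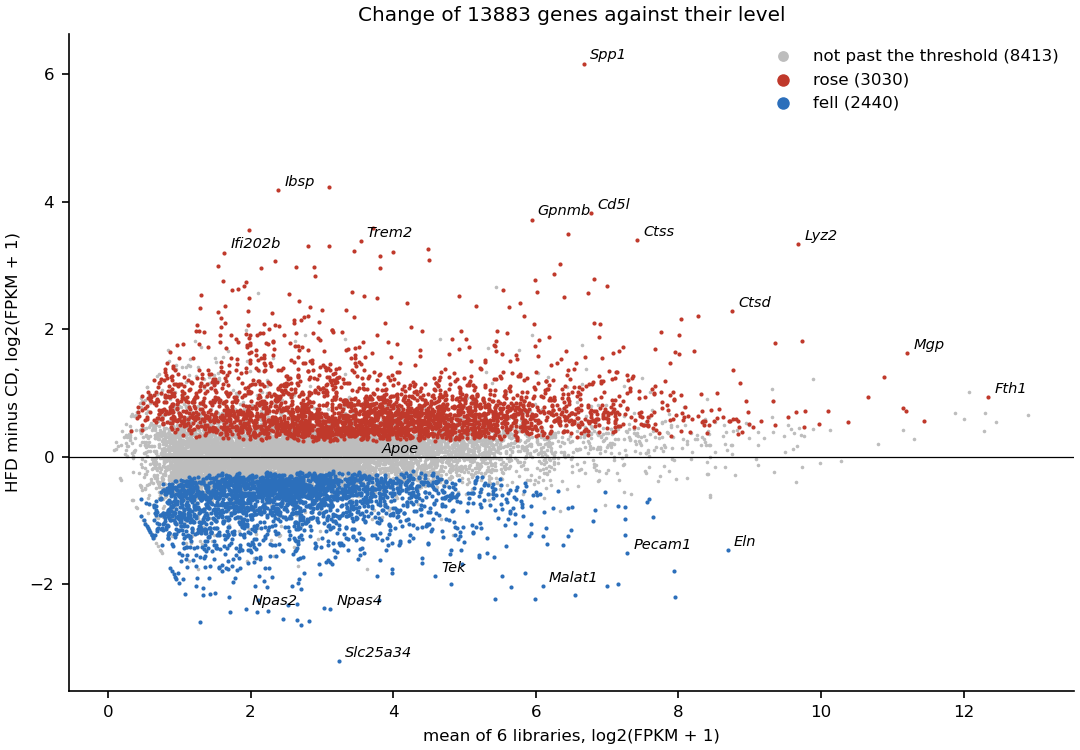
Change of each tested gene (HFD minus CD, log2 of FPKM + 1, vertical) against its mean level in the 6 libraries (horizontal); red points rose, blue points fell and grey points did not pass the threshold. The 3030 rises reach up to 6.17 at Spp1, while the deepest fall, Slc25a34, lies at -3.21.

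**Figure D2:**
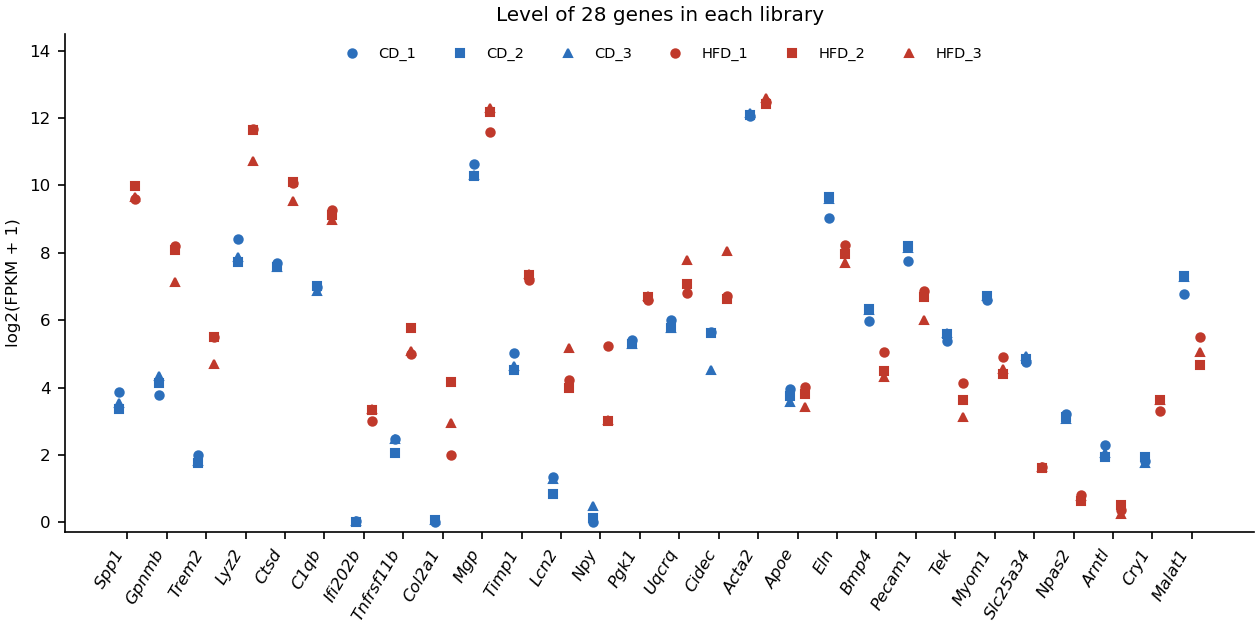
Level of 28 genes in each library on the log2(FPKM + 1) scale, CD in blue and HFD in red, with circles, squares and triangles for libraries 1, 2 and 3. In every gene shown but Apoe the HFD libraries lie wholly above or wholly below the CD libraries.

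Of the lists described here, foam cell genes had the largest median change. All 24 tested members rose, each with HFD above CD in every library, and their median change was 2.24 against 0.06 over all genes. Of all tested genes 21.8% rose and 28.2% had HFD above CD. The members were chosen with earlier results of these data known, so the count, the separation and the rank of the list are descriptions only. Spp1 (chromosome 5, 104435118 to 104441050, GRCm38) was at 13.7, 9.25 and 10.6 FPKM in CD_1, CD_2 and CD_3 and at 781, 1020 and 812 in the HFD libraries, in order. Gpnmb, a membrane glycoprotein of lipid-filled macrophages, was at 12.6, 16.5 and 19.3 FPKM in CD and at 291, 268 and 140 in HFD (log2 change 3.72, SE 0.33, adjusted p = 0.00031). HFD_3 was the lowest of the HFD libraries and still above each chow library. Trem2, a receptor for lipids on macrophages, went from 2.97, 2.37 and 2.52 FPKM to 44.0, 44.3 and 25.2 (3.38, SE 0.21, adjusted p = 7.9e-05). The groups did not overlap, and HFD_3 was again the lowest of the HFD libraries. The same order held for Cd5l, a secreted macrophage survival factor, with 604, 508 and 230 FPKM in HFD against 24.1 to 33.4 in CD. Lysozyme (Lyz2) reached 3281, 3208 and 1674 FPKM against 212 to 342.

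The elastase Mmp12 was at 68.5, 46.9 and 27.5 FPKM in HFD and at 2.30 to 3.76 in CD. Galectin 3 (Lgals3), a lectin made by activated macrophages, was at 381, 333 and 198 FPKM against 21.5 to 28.7. The fatty acid carrier Fabp5 rose by 3.26 (SE 0.34) and Atp6v0d2, a proton pump subunit of macrophages and osteoclasts, by 3.23 (SE 0.36). The list was as clear in other fits: 24 members rose after rescaling to TPM and after the length trend was removed, and 22 with the white adipocyte level as a covariate.

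Myeloid receptors moved the same way, with 25 of 30 rising and none falling (median 1.36). In TPM 18 rose, and with the white adipocyte covariate 17. The adaptor Tyrobp, which carries the signal of Trem2, rose from 24.0 to 29.4 FPKM in CD to 152 to 243 in HFD (2.86, SE 0.24). Clec7a, the receptor for fungal glucans, rose by 2.53 (SE 0.42), the IgG receptor Fcgr4 by 2.11 (SE 0.32) and the lectin Clec4d by 2.09 (SE 0.23). All 8 tested genes of the phagocyte NADPH oxidase rose (median 1.35), which makes superoxide in the phagosome. Its membrane subunit Cyba was at 87.4, 80.6 and 76.1 FPKM in CD and at 319, 303 and 206 in HFD. Ncf4 rose by 1.51 and the proton channel Hvcn1 by 1.55, though 44.2% of the exon bases of Hvcn1 are shared with Tctn1 on the other strand. Of the transcription factors, chosen after their values were seen, Spi1, which drives myeloid identity, was at 8.05 to 8.21 FPKM in CD and at 20.3 to 32.8 in HFD.

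Markers of resident and recruited leukocytes were mixed. Of 17 genes of resident macrophages 7 rose and 1 fell, with 4 rises without HFD_3 and 2 in TPM. Vsig4, a complement receptor of tissue macrophages, went from 0.879, 1.03 and 0.962 FPKM to 5.78, 4.67 and 9.79. The scavenger receptor Stab1 fell by 1.25 (SE 0.33, adjusted p = 0.017), with CD_1 at 25.9 FPKM inside the HFD range of 14.7 to 26.9. Its adjusted p was 0.0595 without CD_2, 0.0596 without CD_3, 0.0537 without HFD_2 and 0.0565 without HFD_3. Monocyte genes counted 1 rise in 12 (Plac8, 1.26, lost without CD_2, CD_3, HFD_2 or HFD_3), neutrophil genes no call in 10, and T cell genes 1 rise in 15. That T cell rise was Il7r, the interleukin 7 receptor, at 0.450 to 1.36 FPKM in CD and 3.84 to 11.6 in HFD (2.29, SE 0.35). The T cell markers Cd3e, Cd3d and Cd3g were highest in CD_1 and HFD_2 and low in the rest. Of 10 B cell genes 2 rose, Cd22 (1.70, SE 0.35) and Cd79b; the latter, a part of the B cell receptor, stood at 36.5 FPKM in HFD_2 against 3.71 and 5.98 in HFD_1 and HFD_3. Its adjusted p was 0.092 without CD_2 and 0.090 without CD_3. Without HFD_1, 6 of the B cell genes rose. With all libraries the share of B cell genes that rose was close to the 21.8% of all tested genes.

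Chemokine genes rose in 18 of 30 cases and fell in 2 (median 0.92), with 13 rises in TPM and 9 with the white adipocyte covariate. Cxcl13, which draws B cells, was at 0.478 to 0.946 FPKM in CD and at 4.77, 22.1 and 22.957 in HFD. Ccl8 was at 32.6, 8.54 and 5.37 FPKM in CD and at 66.8, 86.8 and 64.8 in HFD (2.53, SE 0.58), with CD_1 the nearest to HFD. Ccl6 rose by 2.35 (SE 0.27) and Cxcl14 by 1.85 (SE 0.29). The 2 that fell, Ackr3 (-1.04) and Ackr4 (-0.60), encode receptors that remove chemokines without signalling through G proteins. Complement genes rose in 17 of 24 cases (median 0.91). In TPM 11 rose and 3 fell, and with the white adipocyte covariate 10 rose and 2 fell. The recognition subunits C1qb and C1qc rose by 2.15 (SE 0.20) and 2.09 (SE 0.22), and the integrin chain Itgb2 by 1.97 (SE 0.19). Cd93, an endothelial glycoprotein placed in this list, was the only complement member that fell in the deposited scaling (-1.32, SE 0.21).

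Interferon-induced genes did not share a direction: 4 of 30 rose and 7 fell (median -0.12). The count of rises was 1 without CD_2, CD_3, HFD_2 or HFD_3, that of falls was 4 without HFD_3, and without CD_1 the median was 0.18. The share of interferon-induced genes that fell was not far from the 17.6% of all tested genes, and that of rises was below their 21.8%. Ifit3, an antiviral gene, was at 8.84 to 16.3 FPKM in CD and at 21.7 to 26.6 in HFD (0.99, SE 0.22). Iigp1 fell by 1.41 (SE 0.47, adjusted p = 0.039), but CD_1 held 25.6 FPKM against 7.07 and 9.27 in the other chow libraries. Without CD_1 the change was -0.90 with an adjusted p of 0.087, and the call was also missed without CD_3, HFD_1, HFD_2 or HFD_3 (adjusted p 0.060 to 0.107). Irgm2, a related GTPase, was at 12.1 to 20.2 FPKM in CD and 7.12 to 7.86 in HFD (-0.90, SE 0.19). Of 18 genes of class I antigen presentation none rose and 2 fell, both of the Q region of the major histocompatibility complex. Without CD_1, however, 6 of the 18 rose and 1 fell, and 1 fell without HFD_3. H2-Q4 fell by 1.10 (SE 0.23) and H2-Q7 by 1.29 (SE 0.35, adjusted p = 0.018), the latter with an adjusted p of 0.0501 without CD_1 and 0.0576 without HFD_3. H2-Q6, outside the list, went from 127, 65.7 and 95.0 FPKM to 31.0, 18.3 and 11.8. These genes are near-identical copies, so reads may have been split among them.

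Lysosomal genes formed one of the broadest rises. Of 42 enzymes 34 rose and none fell (median 0.85), of 18 subunits of the vacuolar proton pump 15 rose and 1, Atp6v0a1 (lost without CD_2, CD_3, HFD_2 or HFD_3), fell (median 0.81), and of 20 membrane proteins 14 rose (median 0.51). Cathepsin S (Ctss), a protease of antigen-presenting cells that also cuts elastin, was at 65.9, 45.3 and 46.6 FPKM in CD and at 738, 707 and 332 in HFD. Cathepsin L (Ctsl) rose by 2.57 (SE 0.29), cathepsin D (Ctsd) by 2.28 (SE 0.22) and cathepsin B (Ctsb) by 2.21 (SE 0.19). Ctsd stood at 189 to 205 FPKM in CD and at 1066, 1086 and 745 in HFD. Other genes share 34.4% of the exon bases of Ctsd and 26.9% of those of Ctsl. Smaller but even shifts were seen in Ctsa, the protective protein of galactosidase, with 33.2 to 34.2 FPKM in CD and 67.0 to 72.1 in HFD, and in Npc2, the soluble carrier of lysosomal cholesterol, with 33.2 to 36.3 and 82.7 to 87.4. Gla, the alpha-galactosidase of glycolipids, rose from 2.73, 3.28 and 2.76 FPKM to 14.6, 13.5 and 7.69. The pump subunits Atp6v1b2 and Atp6v1a rose by 1.58 (SE 0.20) and 0.95 (SE 0.12). Laptm5 (1.60), the metal transporter Slc11a1 (1.45) and Cd63 (1.14) led the membrane proteins. Rescaled to TPM, 23 enzymes rose and 2 fell. Removing the length trend gave 34 rises. In TPM 9 pump subunits and 7 membrane proteins rose, and without HFD_1 or HFD_2 the membrane count was 9.

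The promoters of lysosomal genes are known for a palindrome bound by TFEB and its relatives, so the letters TCACGTGA were searched on both strands in RefSeq promoters (GRCm38.p6, 250 bases before to 50 after the start of the gene). They were found in 9 of the 64 list members with a promoter entry (14.1%), against 2.13% of tested genes and 1.12% of all 27025 genes with an entry. Genes that rose held them in 2.30% and genes that fell in 1.73%. The 9 were Atp6v0d1, Atp6v0e, Atp6v1a, Clcn7, Ctsa, Ctsd, Gla, Igf2r and Mcoln1, of which 7 rose; Atp6v0e (0.38, adjusted p = 0.077) and Igf2r (0.07, adjusted p = 0.78) did not pass. Mcoln1 did not pass when any 1 of the 6 libraries was left out (adjusted p 0.052 to 0.095), and Clcn7 not without HFD_1 or HFD_2. The 250 bases upstream of 3 of the genes that rose are shown with the motif in capitals, on the strand of the gene, to let the match be seen in its place. They are Ctsd at chr7:142387828-142388077, Gla at chrX:134601006-134601255 and Atp6v1a at chr16:44139260-44139509, all on the minus strand. A match is a description of the letters and not evidence of binding.
Ctsd: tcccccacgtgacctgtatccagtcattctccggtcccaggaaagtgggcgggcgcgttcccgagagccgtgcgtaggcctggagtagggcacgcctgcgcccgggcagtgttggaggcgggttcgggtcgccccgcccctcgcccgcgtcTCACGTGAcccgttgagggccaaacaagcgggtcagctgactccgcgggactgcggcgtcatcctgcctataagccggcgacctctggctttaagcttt
Gla: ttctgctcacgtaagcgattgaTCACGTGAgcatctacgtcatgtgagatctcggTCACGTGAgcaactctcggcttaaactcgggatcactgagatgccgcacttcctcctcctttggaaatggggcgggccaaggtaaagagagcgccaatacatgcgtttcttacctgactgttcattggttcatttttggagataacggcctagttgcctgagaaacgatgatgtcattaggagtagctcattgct
Atp6v1a: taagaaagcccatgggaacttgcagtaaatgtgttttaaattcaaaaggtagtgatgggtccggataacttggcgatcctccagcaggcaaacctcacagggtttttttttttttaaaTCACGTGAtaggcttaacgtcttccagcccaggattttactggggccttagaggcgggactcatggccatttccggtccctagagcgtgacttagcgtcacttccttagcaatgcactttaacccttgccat

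Genes of cholesterol export and esters rose in part. Of 21 genes tied to liver X receptors 7 rose and none fell (median 0.27, and -0.07 after rescaling to TPM). Abcg1, which loads cholesterol onto HDL, was at 5.23, 7.00 and 6.16 FPKM in CD and at 31.9, 30.8 and 17.0 in HFD. Abca1, its partner for lipid-poor apolipoprotein A1, went from 8.79 to 10.6 FPKM to 12.6 to 24.7 (0.85, SE 0.22), and the receptor Nr1h3 itself rose by 0.97 (SE 0.15). The ester hydrolase Nceh1 rose by 1.72 (SE 0.22), the phospholipid transfer protein Pltp by 1.22 (SE 0.20) and the esterifying enzyme Soat1 by 0.70 (SE 0.17). Apoc1, next to Apoe on chromosome 7, went from 2.51 to 4.11 FPKM to 11.8, 13.8 and 27.5. Apoe, disrupted in all animals, was listed at 12.6 ± 1.82 FPKM in CD and 12.7 ± 2.71 in HFD (SD, n = 3; change -0.01, adjusted p = 0.97). Of 22 genes of cholesterol synthesis and uptake 3 rose and 4 fell (median -0.08), and 2 fell without CD_2 or HFD_2. With all libraries the share of falls was close to the 17.6% of all tested genes, and that of rises was below their 21.8%.

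**Figure D3:**
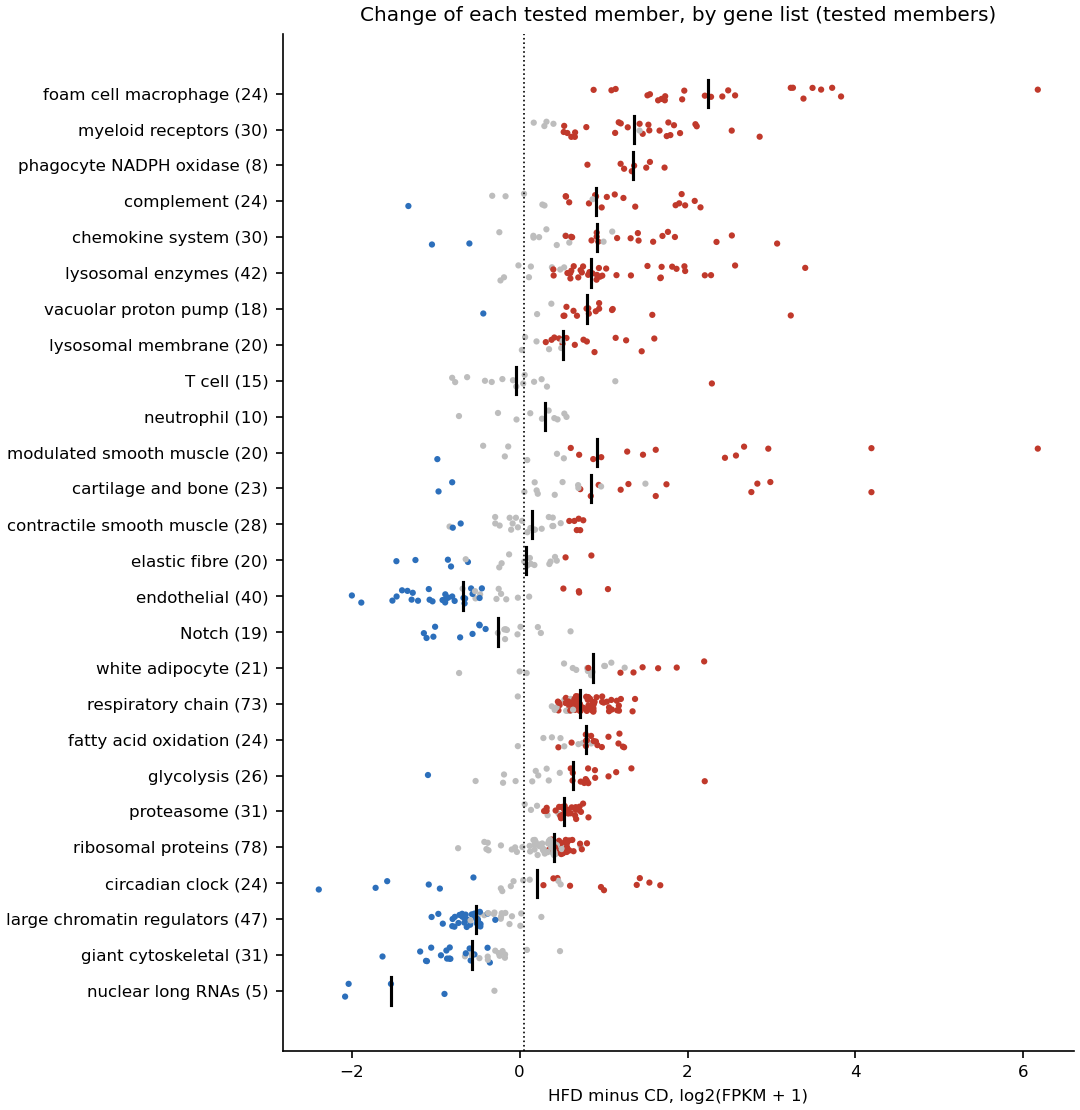
Change of each tested member of 26 gene lists (HFD minus CD, log2 of FPKM + 1, horizontal), with the number of tested members beside each name; red rose, blue fell, grey did not pass, black bars are medians and the dotted line is the median of all tested genes at 0.06. The foam cell macrophage list lies wholly to the right with a median of 2.24, the endothelial list mostly to the left with a median of -0.67.

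Several acute-phase and secreted immune genes were among the 25 largest rises of coding genes. The iron-siderophore carrier lipocalin 2 (Lcn2) was at 1.55, 0.778 and 1.42 FPKM in CD and at 17.6, 15.0 and 34.9 in HFD (3.31, SE 0.37). The serum amyloid Saa3 rose by 2.97 (SE 0.64), the protease inhibitors Slpi by 2.97 (SE 0.46) and Serpina3n by 2.77 (SE 0.26). In Lcn2, Slpi and Serpina3n HFD_3 was the highest library, unlike the foam cell genes named above, in most of which it was the lowest. Ifi202b, a DNA-binding protein of the interferon-inducible p200 family, was at 0.0320, 0 and 0.0324 FPKM in CD and at 6.97, 9.06 and 9.36 in HFD (3.20, SE 0.13, adjusted p = 4.9e-06). Its family has close copies, so its level is uncertain. Igfbp2, a carrier of insulin-like growth factors, rose from 5.19 to 9.19 FPKM to 51.7 to 82.4, while the carrier Igfbp5 fell by 1.24 (SE 0.31).

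Smooth muscle genes split by kind. Of 28 contractile genes 6 rose and 2 fell (median 0.15). The share of rises was close to the 21.8% of all tested genes, and that of falls was below their 17.6%. The median changed sign to -0.24 in TPM, -0.28 after quantile normalization and -0.13 when scaled to ribosomal proteins. The light chain Myl9 was at 1497, 1971 and 1827 FPKM in CD and at 2660, 2618 and 3756 in HFD (0.76, SE 0.23; adjusted p 0.066 without CD_1, 0.067 without CD_3 and 0.084 without HFD_3), and Csrp1, a LIM protein, rose by 0.72 (SE 0.16). The long actin-binding protein Synpo2 fell by 0.79 (SE 0.15). Myocd, the coactivator of the contractile programme, was at 10.7, 30.4 and 22.6 FPKM in CD and 8.89, 13.9 and 9.41 in HFD, which did not pass (-0.83, SE 0.33, adjusted p = 0.074). Within the 28 genes Spearman's rho between length and change was -0.66, a description across genes that share these libraries. Leaving out single libraries gave 1 to 4 rises and 1 to 5 falls.

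Genes that mark modulated smooth muscle rose in 13 of 20 cases and fell in 1 (median 0.93). Tnfrsf11b (osteoprotegerin), a decoy that restrains osteoclasts, was at 4.51, 3.20 and 4.54 FPKM in CD and at 31.2, 54.0 and 33.2 in HFD. The proteoglycan Lum rose by 2.67 (SE 0.19), fibronectin (Fn1) by 1.28 (SE 0.30) and versican (Vcan) by 0.88 (SE 0.18). Thbs1 (thrombospondin 1) was the 1 that fell (-0.98, SE 0.20). Spp1 is also in this list. Cartilage and bone genes rose in 11 of 23 cases and fell in 2, Trpv4 and Fgfr3 (median 0.85). The cartilage collagen Col2a1 was at 0.00588, 0.0491 and 0.0535 FPKM in CD and at 2.98, 16.9 and 6.78 in HFD, and Ibsp, a bone sialoprotein, at 0.0526 to 0.372 and at 11.6, 45.0 and 18.3. The leucine-rich protein Chad went from 0.906, 2.23 and 2.62 FPKM to 10.2, 39.4 and 16.7. In these 3 genes HFD_2 was highest and HFD_1 lowest among the HFD libraries. Aggrecan (Acan) rose by 1.75 (SE 0.36), the link protein Hapln1 by 1.20 (SE 0.29) and their regulator Sox9 by 0.85 (SE 0.20). Matrix Gla protein (Mgp), an inhibitor of calcification, was at 1241 to 1579 FPKM in CD and at 3095, 4588 and 5073 in HFD (1.62, SE 0.23), the third most abundant gene among all that rose.

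Matrix genes changed at single members rather than as a family. Elastin (Eln), the most abundant gene among those that fell, was at 524, 798 and 774 FPKM in CD and at 299, 249 and 205 in HFD (-1.47, SE 0.24, adjusted p = 0.0025). The fibulin Fbln2 was at 56.2 to 103 FPKM in CD and 30.7 to 36.7 in HFD (-1.24, SE 0.20), and the crosslinking enzyme Lox at 62.4 to 68.3 and 30.7 to 41.7 (-0.85, SE 0.12). Of the 20 genes of elastic fibres 5 fell and 2 rose, with a median of 0.07 that changed sign in TPM (-0.32), after quantile normalization (-0.32), with ribosomal scaling (-0.20) and after removal of the length trend (-0.06). The rises were Ltbp2 (0.86, SE 0.28) and Efemp2 (0.55, SE 0.14), and the microfibril genes Mfap5 (-0.82) and Fbn1 (-0.61) were the other two falls. Ltbp2 did not pass without CD_1, CD_2, HFD_2 or HFD_3 (adjusted p 0.078 to 0.111), nor Fbn1 without CD_2, CD_3, HFD_1 or HFD_2 (0.086 to 0.118). Of 25 collagen genes 3 rose and 2 fell, with Col8a1 the largest (1.47, SE 0.22), and Col5a3 fell by 0.83 (SE 0.20). Of 19 basement membrane genes none rose and 4 fell, led by the collagen chains Col4a4 (-1.30, SE 0.21) and Col4a3 (-0.95, SE 0.20). That count was 2 without CD_2, CD_3 or HFD_2 and 7 without CD_1. The share of basement membrane genes that fell was close to the 17.6% of all tested genes. Collagen falls were 5 without CD_1 and 1 without CD_2 or CD_3, and collagen rises 1 without CD_2, HFD_2 or HFD_3. Among 38 proteases and inhibitors 8 rose and 4 fell, with 5 rises without CD_3, 4 without HFD_2 and 7 falls without CD_1. Their share of rises was close to the 21.8% of all tested genes, and that of falls was below 17.6%. The inhibitor Timp1 was at 31.7, 22.1 and 24.0 FPKM in CD and at 146, 162 and 166 in HFD (2.58, SE 0.14, adjusted p = 3.6e-05). The metalloprotease Adam8 of leukocytes rose by 2.56 (SE 0.22), and Adam33, of smooth muscle and fibroblasts, fell by 1.76 (SE 0.23).

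Endothelial genes fell in 26 of 40 cases and rose in 4 (median -0.67), against falls in 17.6% of all tested genes. The receptor phosphatase Ptprb was at 35.7, 65.2 and 72.7 FPKM in CD and at 18.0, 12.7 and 9.89 in HFD (SE of the change 0.28, adjusted p = 0.0014), and its partner Tek, the angiopoietin receptor, at 40.6, 47.1 and 47.8 and at 16.6, 11.5 and 7.81 (-1.88, SE 0.23). The junction proteins Pecam1 and Cdh5 fell by 1.51 (SE 0.22) and 1.46 (SE 0.32), endothelin 1 (Edn1), outside the list, by 1.67 (SE 0.25), von Willebrand factor (Vwf) by 1.40 (SE 0.33) and the nitric oxide synthase Nos3 by 1.27 (SE 0.20). Of the exon bases of Nos3, 32.3% are shared with genes on the other strand. In Ptprb, Tek, Pecam1, Cdh5, Edn1 and Vwf HFD_3 was the lowest library. The 4 that rose were the adhesion molecule Vcam1 (0.71), the Tek ligand Angpt2 (1.05), the peptide Apln (0.71) and the water channel Aqp1 (0.52), which other cells of the wall also make. Apln did not pass when any 1 of the 6 libraries was left out (adjusted p 0.065 to 0.138), nor Vcam1 without CD_2 (0.064). Rescaling to TPM gave 33 falls and 1 rise. The count of falls was 17 without CD_2 and 7 with the white adipocyte covariate, and the adipocyte list summed to 1871 to 4555 FPKM in HFD against 837 to 1735 in CD, with no library of either group at 0 for Adipoq, Plin1, Cidec or Lep. The part of fat in this result was not tested.

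Of 19 Notch genes none rose and 9 fell (median -0.26), among them the receptor Notch4 (-1.14, SE 0.24) and the ligand Dll1 (-1.01, SE 0.20). Notch1 fell by 1.03 (SE 0.31, adjusted p = 0.030) with CD_1 at 2.62 FPKM within the HFD range of 1.32 to 2.91, and it did not pass without CD_2, CD_3, HFD_2 or HFD_3 (adjusted p 0.065 to 0.103). Nrarp, a Notch target, fell by 1.11, but 79.4% of its exon bases are shared with a gene on the other strand. Of 34 genes of the TGF-beta and BMP families 5 rose and 8 fell, shares close to those of all tested genes, with 5 falls without CD_3 or HFD_2 and 3 rises without CD_2 or HFD_2. The ligands Bmp6 and Bmp4 were among the latter: Bmp4 went from 62.2, 79.0 and 78.2 FPKM to 32.3, 21.7 and 18.8 (-1.58, SE 0.19), and Bmp6 fell by 1.84 (SE 0.37). Tgfb3 fell by 1.24 (SE 0.15). Of 33 Wnt genes 7 rose and 8 fell, again close to all tested genes, with 4 falls without CD_2 and 5 without CD_3 or HFD_2, and the secreted antagonists went both ways, with Sfrp1 at -1.39 (SE 0.28), Frzb at 1.26 (SE 0.20) and Sfrp5 at 2.27 (SE 0.59). Sfrp5 stood at 18.1 FPKM in HFD_1 against 2.61 and 2.79 in HFD_2 and HFD_3.

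Genes of energy metabolism rose widely. Of the 73 nuclear respiratory chain genes 63 rose (median 0.72), by complex 31 of 36 in complex I, 4 of 4 in complex II, 8 of 9 in complex III, 9 of 10 in complex IV and 11 of 14 in complex V. Uqcrq of complex III was at 63.5, 53.5 and 53.7 FPKM in CD and at 112, 133 and 220 in HFD (1.38, SE 0.24). Ndufa1 of complex I was at 76.4 to 86.6 FPKM and at 177, 184 and 269 (1.35, SE 0.21). HFD_3 was the highest in both, and the mean log2 level of the list was 6.86 in HFD_3 against 6.26 and 6.35 in the other HFD libraries and 5.59 to 5.95 in CD. Of 24 genes of fatty acid oxidation 16 rose (median 0.80), such as Hadhb (1.25, SE 0.30), Hadh (1.19, SE 0.24) and the carnitine carrier Slc25a20 (1.23, SE 0.24). Of 21 white adipocyte genes 7 rose (median 0.87), and of 14 brown adipocyte genes 6 rose and 3 fell. The white adipocyte count was 4 without CD_3 and 4 without HFD_3. Cidec, a lipid droplet protein, was at 49.0, 47.7 and 21.96 FPKM in CD and at 104, 97.0 and 265 in HFD, and its adjusted p of 0.033 became 0.058 without CD_2, 0.112 without CD_3 and 0.107 without HFD_3. The uncoupling protein Ucp1 was at 81.0, 43.5 and 43.8 FPKM and at 189, 209 and 321 (2.10, SE 0.30), whereas Dio2, which activates thyroid hormone in brown fat and other tissues, went from 23.1 to 26.6 FPKM down to 3.99 to 8.10 (-1.88, SE 0.26).

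The mitochondrial count depended on the fit. The white adipocyte list had a mean log2 level of 4.16 to 4.92 in CD and 5.26 to 6.00 in HFD. The groups did not overlap in this level, so it and the diet cannot be told apart here. The part of fat in the count was not tested. With the white adipocyte level as a covariate 4 of the 73 respiratory chain genes and 1 of the 24 oxidation genes passed, where 984 rises and 704 falls remained over all genes. The list medians were then 0.45 and 0.33. Without CD_2 there were 35 respiratory chain rises, without CD_3 there were 32, and rescaled to TPM 28; the counts of complexes IV and V were also lower without HFD_3, at 5 and 6. Of the 13 tested protein genes of the mitochondrial genome 2 rose, mt-Co3 (2.51, SE 0.59) and mt-Co2 (1.06, SE 0.37), and none fell (median 0.59, and -0.10 after quantile normalization), with 1 rise without CD_3, HFD_1, HFD_2 or HFD_3. Fatty acid oxidation counted 10 without CD_2, 8 without CD_3 and 7 in TPM. Relative to the median of all genes the respiratory chain median was 0.66 as deposited, 0.63 in TPM and 0.61 when scaled to ribosomal proteins.

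Glycolysis rose in 15 of 26 genes and fell in 1. Pgk1, which makes ATP in that path, was at 41.2, 38.5 and 38.4 FPKM in CD and at 95.8, 102 and 104 in HFD (1.33, SE 0.09, adjusted p = 9.5e-05), and Ldha rose by 1.15 (SE 0.15). Hk3, a hexokinase of myeloid cells, rose by 2.21 (SE 0.29), and the platelet isoform of phosphofructokinase, Pfkp, fell by 1.09 (SE 0.14). The proteasome list counted 25 rises in 31 genes and the ribosomal protein list 34 in 78, but in TPM these were 3 and 1, and the ribosomal median changed sign to -0.06 after quantile normalization. The ribosomal count was 10 without CD_2, 12 without CD_3, 14 without HFD_2, 17 without HFD_3 and 53 without CD_1.

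Antioxidant and iron genes rose too. Of 35 antioxidant genes 23 rose and none fell (median 0.68), with heme oxygenase 1 (Hmox1) at 7.02, 8.55 and 10.1 FPKM in CD and at 44.8, 38.5 and 31.0 in HFD. The peroxidase Gpx1 rose by 1.36 (SE 0.19). Of 35 genes of iron handling 16 rose and 2 fell (median 0.48), the mitochondrial iron carriers Slc25a37 (-0.73) and Slc25a28 (-0.40). Ferritin, the iron store, rose in both chains: the heavy chain Fth1 was at 3279 to 4666 FPKM in CD and 6527 to 7604 in HFD (0.94, SE 0.21), and the light chain Ftl1 at 335 to 378 and 958 to 1386 (1.79, SE 0.23). The transferrin receptor Tfrc was at 1.59 to 2.90 FPKM in CD and at 3.63 to 7.89 in HFD (1.11, SE 0.25). Both ferritin chains have processed pseudogenes to which reads could have been given, and 34.6% of the exon bases of Ftl1 are shared with other genes.

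The circadian clock is a loop in which BMAL1 (Arntl) with CLOCK or NPAS2 switches on its own repressors, so the arms normally peak at opposite times of day. Of 24 clock genes 10 rose and 6 fell (median 0.20, and -0.18 in TPM), and 6 rose without CD_3. On the positive arm Npas2 was at 8.20, 7.73 and 7.30 FPKM in CD and at 0.740, 0.549 and 0.719 in HFD (-2.39, SE 0.11, adjusted p = 9.2e-06). Arntl was at 3.88, 2.83 and 3.16 FPKM and at 0.289, 0.429 and 0.196 (-1.71, SE 0.14), and Clock fell by 0.95 (SE 0.08). On the other side the repressor Cry1 was at 2.56, 2.85 and 2.37 FPKM in CD and at 8.85, 11.3 and 11.4 in HFD (1.68, SE 0.12). Ciart rose by 1.43 (SE 0.21), Wee1 by 1.55 (SE 0.14), Dbp by 1.40 (SE 0.22) and Bhlhe41 by 1.01 (SE 0.11). Nr1d1, a repressor of Arntl, did not follow them, going from 47.0, 72.2 and 73.1 FPKM to 21.8, 17.5 and 22.3 (-1.58, SE 0.22). Nfil3 fell by 1.08 (SE 0.23). No HFD library overlapped a CD library in any clock gene just named, as in most genes that passed the threshold. Of the 24 clock genes 11 had HFD above CD, 8 had HFD below and 5 overlapped. Over all tested genes the groups were apart in 50.7%. The hour of collection is not in the labels, and it and the diet cannot be told apart here.

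Clock factors read an E-box (CACGTG) and, in Arntl, an element read by ROR and NR1D1 (TAGGTCA), and both were searched on both strands in the same promoter table; the E-box is contained in the lysosomal palindrome. Among the 18 clock genes with an entry 5 held an E-box (Bhlhe41, Ciart, Cry1, Per1 and Tef), or 27.8% against 11.7% of tested genes and 8.09% of all. Of those 5 only Per1 did not rise, and Tef did not pass without CD_1, CD_3, HFD_1 or HFD_3 (adjusted p 0.053 to 0.079). The E-box was also in 19 of the 64 lysosome list members with an entry (29.7%), of which 9 hold the whole palindrome. Its share was thus not particular to clock genes. The ROR letters were in 2 of the 18 clock genes, Arntl and Nfil3, which both fell, and in 2.26% of tested genes and 2.97% of all. The upstream 250 bases of 2 repressors that rose, Cry1 (chr10:85185055-85185304) and Ciart (chr3:95882229-95882478), both on the minus strand, are shown with E-boxes in capitals. For Arntl (chr7:113207529-113207558, plus strand) the 30 bases around the ROR letters are shown; the match begins 31 bases after the start in 1 of its 2 entries.
Cry1: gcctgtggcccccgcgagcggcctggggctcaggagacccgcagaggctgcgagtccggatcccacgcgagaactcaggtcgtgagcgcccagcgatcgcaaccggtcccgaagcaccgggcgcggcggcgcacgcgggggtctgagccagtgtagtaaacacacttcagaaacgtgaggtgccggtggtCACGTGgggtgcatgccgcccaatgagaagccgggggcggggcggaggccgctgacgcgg
Ciart: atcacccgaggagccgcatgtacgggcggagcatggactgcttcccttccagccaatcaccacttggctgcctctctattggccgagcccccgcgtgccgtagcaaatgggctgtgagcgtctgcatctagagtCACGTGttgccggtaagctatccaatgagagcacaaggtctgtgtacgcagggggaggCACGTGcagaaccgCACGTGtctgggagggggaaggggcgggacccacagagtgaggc
Arntl: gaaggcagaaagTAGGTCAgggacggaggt

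Among the largest falls were genes in none of these families. Slc25a34, a member of the mitochondrial carrier family, was at 26.1, 27.8 and 29.5 FPKM in CD and at 2.10, 2.08 and 2.14 in HFD (-3.21, SE 0.10, adjusted p = 1.7e-06), the only fall past 3. It lies on the minus strand of chromosome 4 from 141618824 to 141623821. Its neighbour Tmem82, at 141613376 to 141618633 on the same strand, was at 11.2, 7.53 and 8.35 FPKM and at 1.17, 0.689 and 0.648 (-2.44, SE 0.16). Wdr95 fell by 2.58 (SE 0.20) and Igsf9 fell by 2.33 (SE 0.29). The activity-dependent factor Npas4 went from 17.3, 21.7 and 17.8 FPKM to 5.04, 1.93 and 2.05, while 5 of the 29 immediate early genes rose and no other fell. Those rises were a smaller share than the 21.8% of all tested genes. They were 3 without CD_2 or HFD_1 and 2 without CD_3 or HFD_2. Myom1, a protein of the sarcomeric M-band, was at 95.2, 105 and 104 FPKM in CD and at 29.1, 20.3 and 22.5 in HFD (-2.05, SE 0.20), although 3 of 16 striated muscle genes rose and none fell. The share of striated muscle genes that rose was also below 21.8%. Their count was 0 without CD_2, CD_3, HFD_2 or HFD_3, 1 without CD_1 and 7 without HFD_1. Of those 3, Acta1 passed only narrowly (adjusted p = 0.049) and was lost without CD_1, CD_2, CD_3, HFD_2 or HFD_3. The neuropeptide Npy, the sixth largest rise among coding genes, was at 36.9 FPKM in HFD_1 and at 6.97 and 7.18 in HFD_2 and HFD_3, against 0 to 0.388 in CD. The value in HFD_1 came with the sympathetic neuron genes Th and Dbh found in that library alone; both were at 0 in HFD_2 and HFD_3.

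Several classes of noncoding gene fell more often than coding genes. Of 12083 coding genes 23.1% rose and 16.6% fell, whereas of 230 antisense genes 3.48% rose and 43.9% fell, and of 226 lincRNAs 7.52% rose and 37.6% fell. Of 22 sense intronic genes 17 fell and none rose. Small RNA genes gave no rise: 29 of 105 miRNA precursors, 18 of 76 snoRNAs and 14 of 51 snRNAs fell. Their median levels were only 1.64, 2.11 and 1.26 FPKM, at median lengths of 82, 93.5 and 105 bases, so they rest on few reads. Members this near the minimum of 1 FPKM can pass the filter through 1 group alone, so these counts are no result about the classes. Processed pseudogenes went the other way, with 177 of 631 rising and 46 falling. Of 5 tested long RNAs retained in the nucleus 4 fell and 1 was not called, with changes from -2.08 to -0.30. Malat1 was at 109, 156 and 154 FPKM in CD and at 44.1, 24.7 and 32.6 in HFD (-2.03, SE 0.22), Meg3 fell by 2.08 (SE 0.22) and Neat1 by 1.53 (SE 0.27). Without a stated strand, reads of an antisense gene and its partner cannot be told apart. After the length trend was removed 126 antisense genes and 108 lincRNAs fell, while miRNA precursors, at a median length of 82 bases, counted 5 rises and 8 falls, snoRNAs 2 and 2, and snRNAs no rise and 5 falls. By voom on the recovered reads 17 miRNA precursors, 10 snoRNAs and 8 snRNAs fell.

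A precursor's FPKM in a library of long RNA does not measure the mature miRNA. The precursor Mir23b was at 174, 123 and 119 FPKM in CD and at 45.6, 29.9 and 16.6 in HFD (-2.23, SE 0.36). Mir23a and Mir27a, neighbours on chromosome 8, changed by -2.55 (SE 0.67) and -1.44 (SE 0.38), and both calls were lost when the length trend was removed, without CD_2 or without HFD_2; that of Mir27a was also lost without CD_3. These 3 were chosen after their values were seen. Only the 5p form of Mir23b had an entry, so its 3p form was not compared. Whether Mir23a and Mir23b share a seed in their 3p forms is therefore not shown here. The mature forms of the 3 from RefSeq (GRCm38.p6), where an entry was given, are shown with the seed, bases 2 to 8, in capitals. No seed is shared among the 5 forms shown, close as some are.
mmu-miR-23a-5p: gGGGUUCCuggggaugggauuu
mmu-miR-23a-3p: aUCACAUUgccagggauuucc
mmu-miR-27a-5p: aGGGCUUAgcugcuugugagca
mmu-miR-27a-3p: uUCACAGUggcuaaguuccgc
mmu-miR-23b-5p: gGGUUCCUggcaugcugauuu

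Transcription factor genes, as the deposited table assigns them to families, tended to be lower. Of 849 coding members 53 rose (6.24%) and 222 fell (26.1%), against 24.4% and 15.8% of the other 11234 coding genes. The zinc finger family zf-C2H2 held 355 of them, with 6 rises and 85 falls. The bHLH and bZIP families were balanced, with 11 rises and 12 falls in 50 genes and 9 rises and 10 falls in 42. Their median length was 4882 bases against 4268 for the other coding genes, and after removal of the length trend 51 rose and 167 fell. Against this background the myeloid factors Spi1 (1.57, SE 0.18), Irf8 (1.55, SE 0.29) and Cebpb (1.53, SE 0.15) rose. They were chosen after their values were seen.

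**Figure D4:**
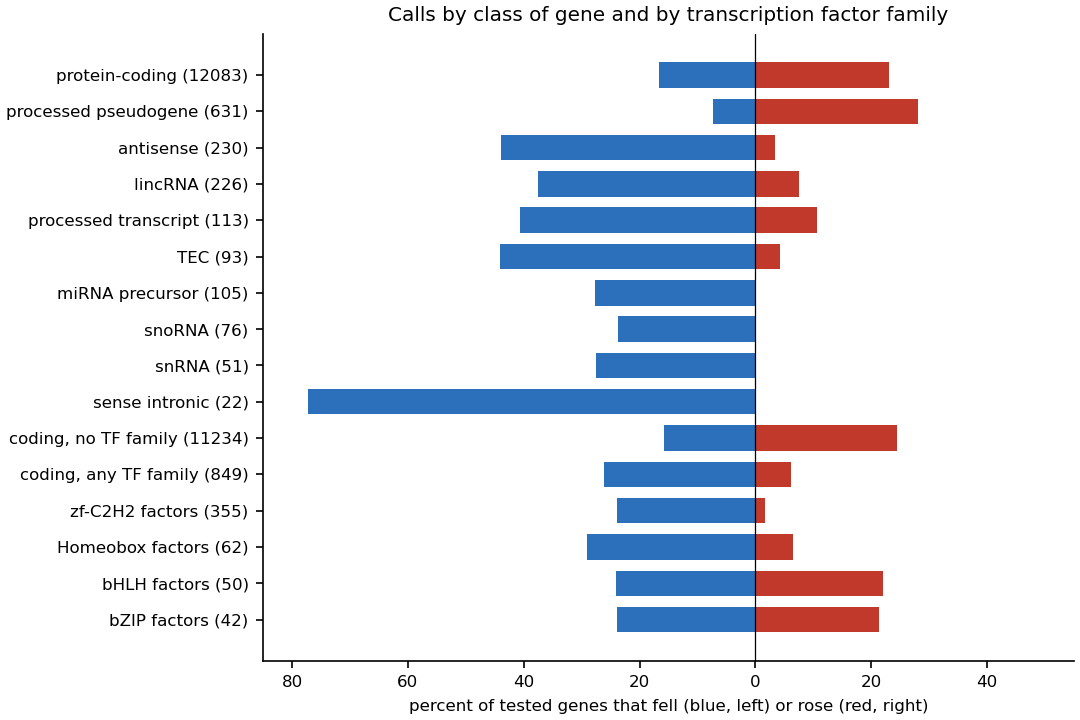
Percent of tested genes that fell (blue, to the left) or rose (red, to the right), by class of gene in the upper 10 bars and by transcription factor family among coding genes in the lower 6, with the number tested in brackets. Antisense genes and lincRNAs fell in 43.9% and 37.6% of cases, and coding genes rose in 23.1%.

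The change depended on the length of the gene. Across 12083 coding genes Spearman's rho between the length given in the table and the change was -0.44, against 0.04 for GC content and 0.23 for level; genes of 1 set of libraries are not independent, so no p is given. In the shortest of 10 equal classes (up to 1675 bases) the median change was 0.50, 49.9% of genes rose and 5.12% fell. In the longest class (from 9634 bases) it was -0.27, with 4.22% rising and 40.4% falling. Separation of the groups followed, with HFD above CD in 54.5% of the shortest class and 8.77% of the longest. With the genes split evenly by level into 4 sets the relation was present in each, with rho of -0.29, -0.41, -0.41 and -0.49 from low to high.

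Each library's own slope on log2 length, taken against the mean of the 6, showed how the groups differed. It was 0.033, 0.150 and 0.148 per doubling of length in CD_1, CD_2 and CD_3 and -0.089, -0.108 and -0.134 in the HFD libraries. The groups did not overlap, and the difference of means was -0.221 with an exact two-sided permutation p of 0.1, the smallest that 3 against 3 allows. CD_1 lay between the other chow libraries and HFD, and without it the difference was -0.26. The libraries with iron, measured against the same mean, had slopes of 0.057, 0.022 and 0.070, above all HFD values and below those of CD_2 and CD_3. RNA integrity values were not given in the labels.

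**Figure D5:**
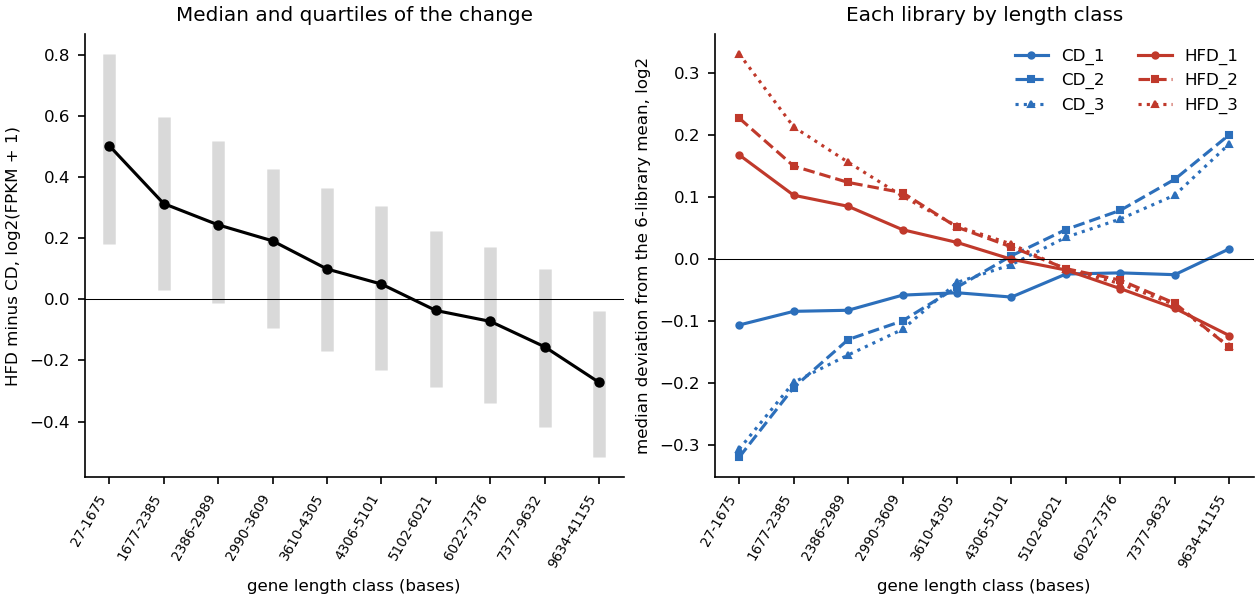
Left, median (points) and quartiles (grey bars) of the change in 10 classes of coding gene length in bases. Right, the median deviation of each library from the mean of the 6 in the same classes, CD in blue and HFD in red; the CD_2 and CD_3 lines climb with length, the HFD lines descend and CD_1 is nearly flat.

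The trend ran within some gene families and not in others. Among the 73 respiratory chain genes rho was -0.52, among 47 large chromatin regulators -0.48 and among 42 lysosomal enzymes -0.39, but -0.08 among 78 ribosomal proteins and -0.03 among the 24 foam cell genes. Not every list of long genes fell: of 20 lysosomal membrane proteins (median length 5751.5 bases) 14 rose and none fell. Among much longer genes, 32 of 47 chromatin regulators fell and none rose (median -0.51, median length 13667 bases). Of 31 giant cytoskeletal genes 18 fell and none rose (median -0.57). After the trend was removed 17 and 7 fell, with medians of -0.26 and -0.20, and 3 giant cytoskeletal genes rose. The giant cytoskeletal count was 7 without CD_2, 8 without CD_3, 9 without HFD_2 and 10 without HFD_3. The methyltransferases Kmt2d and Kmt2c fell by 1.05 (SE 0.25) and 0.91 (SE 0.13). The longest called genes with a mean of at least 20 FPKM were Dst, Enah, Plec, Sptbn1 and Vwf, and all fell. Dst, a cytoskeletal linker of 41155 bases, was at 19.5, 36.8 and 35.5 FPKM in CD and at 17.2, 15.3 and 14.6 in HFD (-0.87, SE 0.23), and it did not pass without CD_2 or CD_3 or after removal of the trend. At the short end Cox8b (360 bases), Rpl36 (383 bases) and Ndufa1 (419 bases) rose. Cox8b did not pass without CD_2 or CD_3, nor Rpl36 without CD_1, CD_2, CD_3, HFD_2 or HFD_3. Among the long genes Plec did not pass without CD_2, CD_3, HFD_2 or HFD_3. Cox8b, a respiratory subunit of brown fat and muscle, was at 220, 135 and 90.2 FPKM in CD and at 282, 351 and 845 in HFD.

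Some genes went against their length. In the longest class Fn1 (11685 bases) was at 63.9, 114 and 134 FPKM in CD and at 180, 266 and 298 in HFD, and lipoprotein lipase (Lpl, 10478 bases) rose by 1.09 (SE 0.28). Foam cell, lysosomal, endothelial and clock changes kept their direction when the trend was removed: 24 of 24 foam cell genes and 34 of 42 enzymes rose, 27 of 40 endothelial genes fell, and 12 of 24 clock genes rose with 5 falling. Over all genes 2256 rose and 2120 fell in that fit, and 3701 of the 5470 calls were shared with it, none in the opposite direction.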

How the data were processed

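The 9 RNA-seq libraries of aorta were deposited as 1 table of FPKM per gene and library, which the authors had computed. The submitters' processing notes name HISAT2 and the build hg38, a human one. The table's identifiers are mouse: 54495 of 54532 are in GENCODE M21 (GRCm38), 98.3% with the same coordinates. Counter, annotation and strand setting: not given in the sources used here. Low values of each library were whole multiples of 1 read, so totals of 16660963 to 18308450 reads were recovered over the 9 libraries, with 100% of values whole within 0.05 of a read. The library total implied by the FPKM was 1.10, 1.05 and 1.05 times the recovered reads in CD_1, CD_2 and CD_3. In HFD_1, HFD_2 and HFD_3 it was 1.00, 0.954 and 0.895 times. The deposited scaling thus places HFD higher against CD than recovered depth would. On those reads voom, given the implied totals as library sizes, called 3043 rises and 2487 falls. That fit keeps the deposited scaling, so it is no check on the split of directions. These depths leave genes near 1 FPKM imprecise.

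Libraries were assigned to groups by column name. log2(FPKM + 1) was fitted with limma 3.58.1 in R 4.3.3 as 3 group means with an intensity trend, the iron group sharing the estimate of spread, and HFD was compared with CD with Benjamini-Hochberg adjustment. The script was tested on simulated data. Gene lists and members were chosen with earlier results of these data known. Genes to name were taken from the 25 largest rises and falls among called coding genes with groups apart (without predicted genes), the 4 largest changes and described members of each list, the 5 most abundant calls in each direction, the 5 longest and shortest called coding genes above 20 FPKM, and Apoe. TPM, quantile and ribosomal scaling, filters, covariates, voom on recovered reads, removal of the length trend and omission of libraries were tried as alternatives. Some genes are not reported here.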

Additional observations from a re-analysis of the deposited data

How the results depend on the processing

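No paired analysis was possible because the numbers in the column names are not in the sample labels, and the numbers in the titles are not shared between groups. The count of 3030 rises became 1018 in TPM, 903 with ribosomal scaling, 984 with the white adipocyte covariate and 1554 with the striated muscle covariate. The 2440 falls became 1332 with an FPKM minimum of 5, 4948 in TPM, 704 with the adipocyte covariate and 1199 with the striated muscle covariate. Leaving out 1 library gave 2043 to 3316 rises and 1669 to 2844 falls. HFD lay above CD in 1482 genes in TPM and 1923 with ribosomal scaling, and below in 4974 without a filter, 1578 with an FPKM minimum of 5 and 5763 in TPM. The length slope difference of -0.22 was -0.12 without a filter, -0.0494 with length removed and -0.0490 with length and GC removed, both removals lowering it by construction, and -0.26 to -0.20 with 1 library left out. Apoe, at -0.01, was 0.13 with array weights, 0.25 without both CD_1 and HFD_3, and -0.14 to 0.15 with 1 library left out. In TPM Mcoln1 was -0.0185. After quantile normalization Myl9 was -0.0168, Tmsb4x -0.0515 and Rplp1 -0.23. Other causes were not tested. Ribosomal scaling of the separation and of the slope, and separation after length and GC removal or in coding genes alone, were chosen after seeing the data. Depth limits genes near 1 FPKM.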
